A study of Arabidopsis thaliana with 6 samples.

Results

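The SAUR (SMALL AUXIN UP RNA) genes described here are 48 loci of Arabidopsis thaliana, chosen by locus tag from a list of family members, out of 26552 loci measured by RNA sequencing. Of these 48 members, 30 lie in 6 tandem groups, runs of neighbouring copies on one chromosome. The other 18 are called dispersed here because they lie outside these 6 groups, though some neighbour another SAUR gene. The 6 libraries were poly(A)-selected RNA from whole seedlings of the wild-type ecotype Col-0, 6 days old and grown in shaken liquid medium under long days. The 3 control libraries had no arsenical added, and the 3 DMMTA libraries came from seedlings exposed for 6 h to 15 µM DMMTA (dimethylmonothioarsenate, a sulfur-containing methylated form of arsenic). The labels call the 3 libraries of each group biological replicates, and the design asks how seedlings respond to DMMTA.

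SAUR genes encode small, short-lived proteins, and many are among the fastest genes to respond to auxin. In the acid growth model, SAUR proteins of the SAUR19 type bind and inhibit clade D protein phosphatases of type 2C. This leaves plasma membrane proton pumps (AHA proteins) phosphorylated and active, so that the cell wall is acidified and the cell expands. Other members are induced by light, warmth, brassinosteroid or ageing rather than by auxin alone, and the family is active in hypocotyls, cotyledons, leaves and roots.

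The members are compact genes. All 48 have 1 coding exon, with a coding length of 261 to 573 bases and a median of 327. The tandem groups are named here by their SAUR numbers: SAUR19 to SAUR24 at chr5:5962773-5984308, SAUR61 to SAUR68 at chr1:10301377-10323239, SAUR26 to SAUR29 at chr3:976715-983768, SAUR1 to SAUR5 at chr4:16591179-16599568, SAUR13 to SAUR16 at chr4:18121526-18131284, and SAUR6, SAUR7 and SAUR12 at chr2:9083906-9090052. Coordinates and sequences are those of the RefSeq annotation of the TAIR10.1 build. The number of coding sequences listed per locus in the files was the same as in that annotation for 26444 of the 26445 loci matched.

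Copies within a tandem group can be close enough to share reads. SAUR19 and SAUR24, the outermost members of the SAUR19 group, are shown because they are the closest pair among its 6 members. Their coding sequences have 273 bases each and differ at 13 positions, given in capitals, which is 95.2% identity.
SAUR19 coding sequence, chr5:5963033-5963305, minus strand: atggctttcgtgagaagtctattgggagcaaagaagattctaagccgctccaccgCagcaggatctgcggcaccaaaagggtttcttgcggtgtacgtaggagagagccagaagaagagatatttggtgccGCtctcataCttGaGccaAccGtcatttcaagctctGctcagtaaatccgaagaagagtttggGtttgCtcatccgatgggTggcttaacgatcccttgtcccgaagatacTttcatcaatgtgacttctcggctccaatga
SAUR24 coding sequence, chr5:5983840-5984112, plus strand: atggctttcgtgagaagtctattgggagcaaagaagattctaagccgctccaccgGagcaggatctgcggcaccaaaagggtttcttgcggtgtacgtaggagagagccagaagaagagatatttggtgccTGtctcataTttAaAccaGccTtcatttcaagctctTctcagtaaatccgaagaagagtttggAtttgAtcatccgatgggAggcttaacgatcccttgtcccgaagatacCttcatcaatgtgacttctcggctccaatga
The longest stretch the pair shares without a difference is 75 bases. Across all 15 pairs of the SAUR19 group the identity was 87.7% to 95.2%, and 4 pairs share a run of at least 50 bases. Among the 28 pairs of the SAUR61 group the identity was 45.4% to 89.3%, highest between SAUR63 and SAUR68, and 1 pair shares such a run. No pair in the other 4 groups does, nor does any of the 1060 pairs that lie in different groups or are dispersed. How reads that match several copies were counted is not given in the sources used here, so a single member of these 2 groups is less certain than the group's sum, which is given for each group below.

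The sequence before the gene start is shown for 5 members. SAUR32 and SAUR51 had the largest changes. SAUR19, SAUR62 and SAUR26 belong to the 3 tandem groups with no member past the test and a shared order of libraries. SAUR62 and SAUR26 are the highest members of their groups, and SAUR19 is the first of its group by position. Each window holds the 250 bases before the annotated gene start, written 5′ to 3′ in the direction of the gene. Capitals mark CACATG on either strand (CATGTG on the strand shown), an E-box variant that PIF-type transcription factors, growth regulators under light and warmth control, are known to bind. The window of SAUR24, the highest member of the SAUR19 group, held 0 matches and is not shown.
SAUR32 upstream, chr2:19180455-19180704, plus strand: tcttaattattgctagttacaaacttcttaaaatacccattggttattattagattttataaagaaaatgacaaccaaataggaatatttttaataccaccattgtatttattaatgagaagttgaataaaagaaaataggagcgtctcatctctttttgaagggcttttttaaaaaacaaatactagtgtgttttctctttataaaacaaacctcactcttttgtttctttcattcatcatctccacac
SAUR51 upstream, chr1:28377127-28377376, plus strand: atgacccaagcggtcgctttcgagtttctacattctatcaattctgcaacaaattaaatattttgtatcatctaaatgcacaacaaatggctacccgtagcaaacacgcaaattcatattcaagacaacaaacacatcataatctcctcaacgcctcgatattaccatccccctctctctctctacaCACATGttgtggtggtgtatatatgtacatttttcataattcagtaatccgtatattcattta
SAUR19 upstream, chr5:5963406-5963655, minus strand: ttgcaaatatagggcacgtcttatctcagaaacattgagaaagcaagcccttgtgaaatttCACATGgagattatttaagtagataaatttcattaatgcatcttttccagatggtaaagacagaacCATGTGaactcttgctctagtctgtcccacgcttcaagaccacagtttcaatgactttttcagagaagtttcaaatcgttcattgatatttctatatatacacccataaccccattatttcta
SAUR62 upstream, chr1:10303419-10303668, minus strand: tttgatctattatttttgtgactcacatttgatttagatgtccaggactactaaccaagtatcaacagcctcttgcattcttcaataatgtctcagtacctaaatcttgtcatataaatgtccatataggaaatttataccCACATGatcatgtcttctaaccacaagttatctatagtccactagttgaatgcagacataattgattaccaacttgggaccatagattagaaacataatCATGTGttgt
SAUR26 upstream, chr3:982807-983056, plus strand: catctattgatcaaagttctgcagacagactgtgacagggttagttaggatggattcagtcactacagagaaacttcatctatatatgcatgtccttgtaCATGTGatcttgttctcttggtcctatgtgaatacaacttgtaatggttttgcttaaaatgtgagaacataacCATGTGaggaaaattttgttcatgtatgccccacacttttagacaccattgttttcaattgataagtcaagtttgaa

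CACATG was present in the windows of 27 of the 48 members (56.3%), against 11.1% of the windows of the same length before all 26359 loci that have one. Several matches stood in 9 members (18.8%) and in 1.30% of all loci. The matches followed the tandem groups: all 8 members of the SAUR61 group and all 4 of the SAUR26 group held one, as did 4 of 5 in SAUR1 to SAUR5, 3 of 4 in SAUR13 to SAUR16, 3 of 6 in SAUR19 to SAUR24 and 1 of 3 in the SAUR6 group. Among the dispersed members 4 of 18 held one. Neighbouring copies arose by duplication, so their windows are not independent. Of the 12 members called lower below, 4 held CACATG (SAUR14, SAUR6, SAUR51 and SAUR8), and of the 31 tested members not called, 20 did. The core auxin response element TGTCTC was in 7 members (14.6%, against 11.0% of all loci), and its higher-affinity form TGTCGG in 2 (4.17%, against 4.13%). The G-box CACGTG and the brassinosteroid response elements CGTGTG and CGTGCG were in none of the members' windows, against 6.48%, 5.40% and 1.56% of all loci. Each motif was searched on both strands, and with 6 letters each none holds another, though neighbouring matches can share bases. A match describes these letters only.

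**Figure D1:**
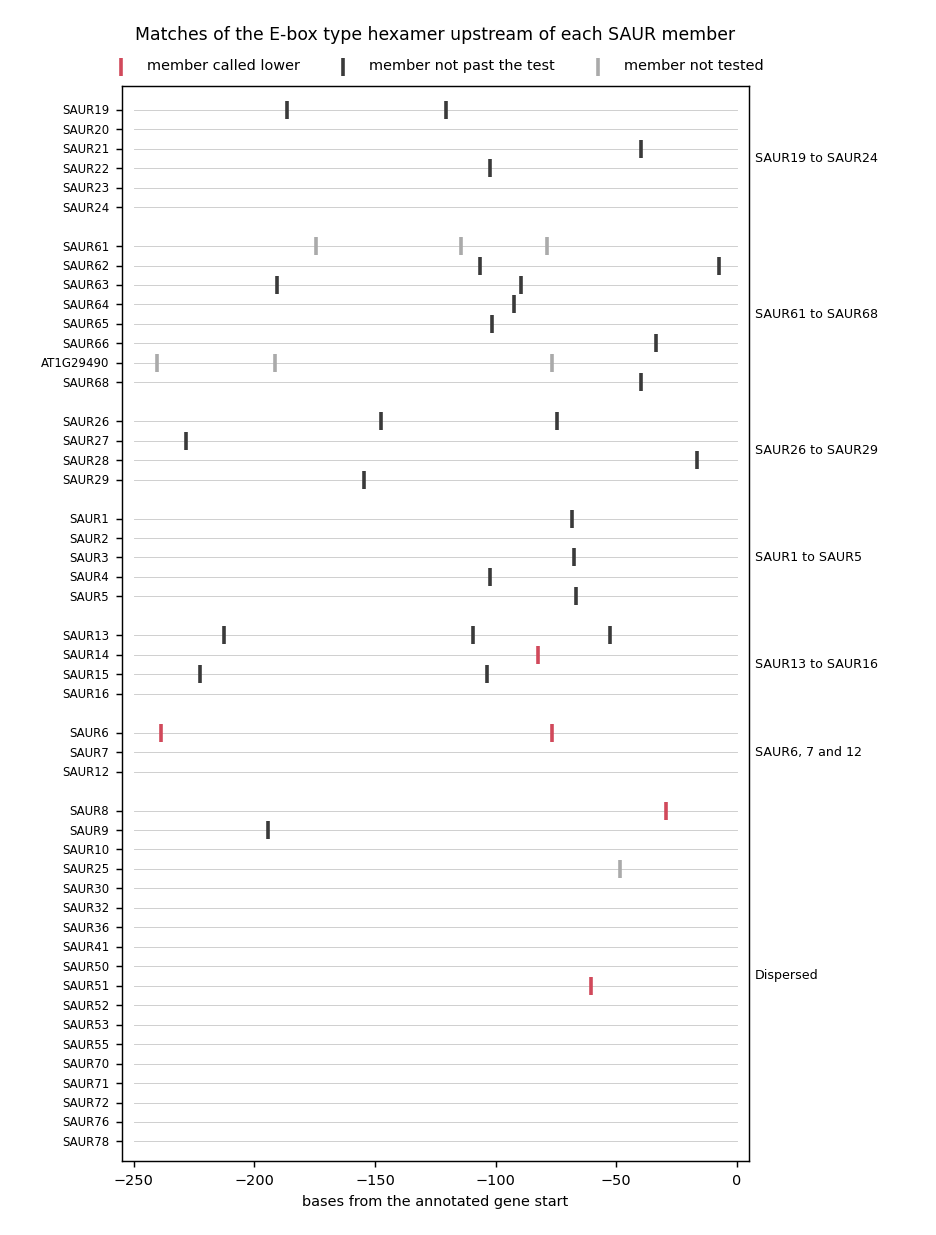
Position of each CACATG or CATGTG match in the 250 bases before the gene start, 1 line per member, with the horizontal axis in bases from the annotated start. Colours give the call of the member in the comparison of DMMTA with control. Matches stand before all 8 members of the SAUR61 group and all 4 of the SAUR26 group, and before 4 of the 18 dispersed members.

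Levels are given in TPM, transcripts scaled to a fixed library total: the deposited RPKM values were summed over the coding sequences of each locus and rescaled to a total of 1000000 in each library. Differences were tested with limma on log2(TPM + 0.5) over all 18814 loci that had at least 1 TPM in at least 3 libraries, and p-values were adjusted by the Benjamini-Hochberg method over all of them, with a call under 0.05. A log2 fold change is DMMTA minus control on this scale, which understates the change of genes with low levels. The read depth estimated from the files was 7.25e+07 to 1.35e+08 reads per control library and 6.62e+07 to 1.1e+08 per DMMTA library. Over all loci 17.4% were called higher and 10.5% lower, and the median log2 fold change was 0.04.

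SAUR transcripts fell under DMMTA in a subset of members, and no member rose past the test. Of the 48 members 43 were tested, 12 were called lower (27.9% of those tested, against 10.5% of all loci), none was called higher (17.4% of all loci), and 31 were not called. The members were chosen with earlier results of these data known, so these shares only describe the list. Without SAUR7, which reached 1 TPM in no DMMTA library and was tested through its control libraries, 11 of 42 were called lower. The median log2 fold change of the tested members was -0.23. Of the 12 called, 8 were at least 2-fold lower by the fit, a size and call that 3.24% of all loci reached. In 13 members every DMMTA library was below every control library (18.6% of all loci), which are the 12 called and SAUR41. In 1 member, SAUR30, every DMMTA library was above every control library (27.8% of all loci).

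The summed level of all 48 members was 443, 400.3 and 462 TPM in control libraries 1, 2 and 3. It was 263, 338 and 292 TPM in DMMTA libraries 1, 2 and 3. The groups did not overlap, and the mean fell 1.46-fold, from 435 ± 31.6 to 298 ± 38.2 TPM (SD, n = 3 each; exact two-sided permutation p = 0.1, the smallest that 3 libraries against 3 allow). The 12 called members together went from 199 ± 12.6 to 69.3 ± 10.5 TPM, a description only, since they were chosen by the test. The 31 tested members that were not called, likewise set apart by the test, held 234.5 ± 23.7 TPM in control and 226.8 ± 27.9 TPM in DMMTA. The sum without SAUR32 was 367 ± 25.1 TPM in control and 286 ± 37.5 TPM in DMMTA, again with no overlap (exact permutation p = 0.1).

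**Figure D2:**
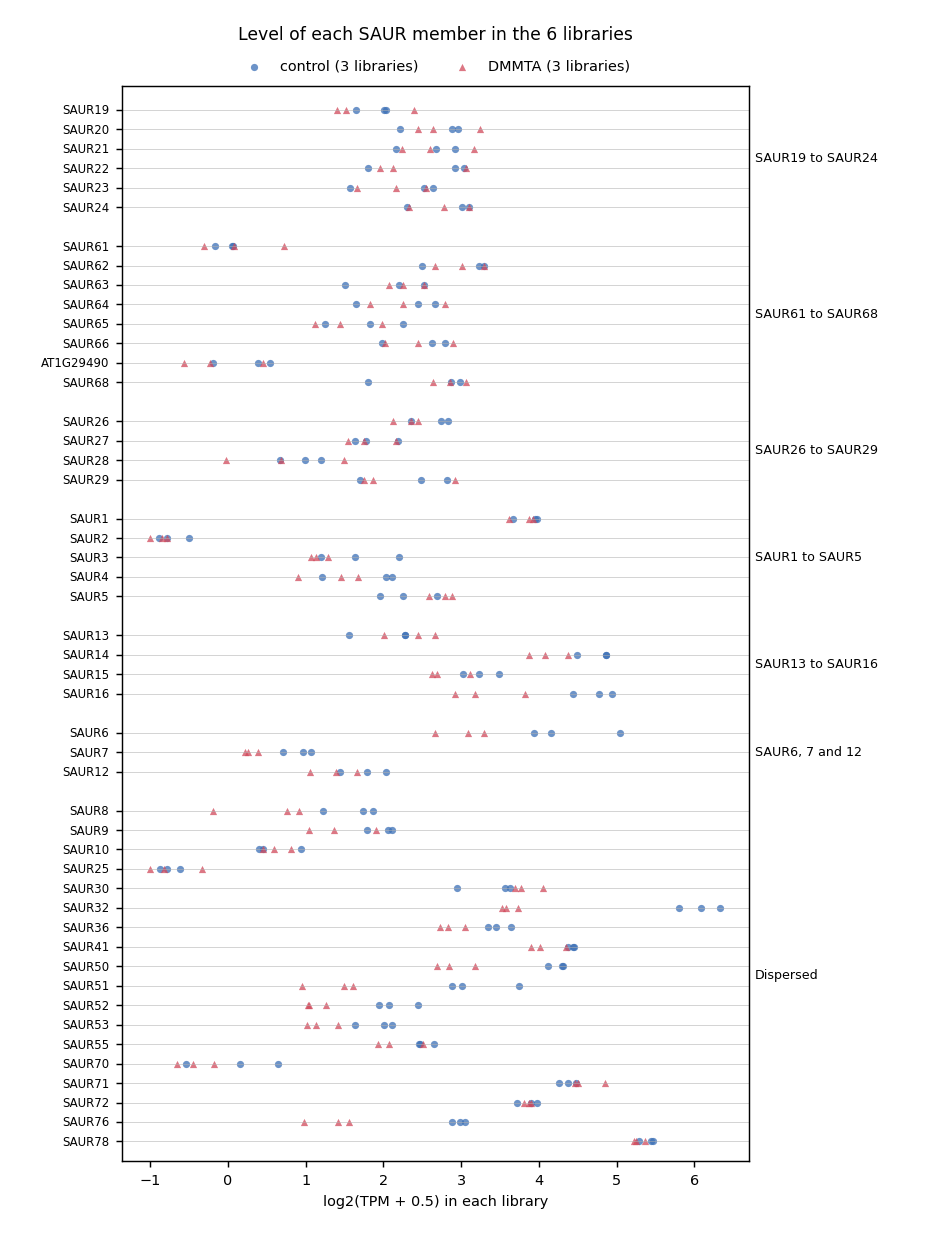
Level of each of the 48 members in the 6 libraries as log2(TPM + 0.5), 1 row per member, with circles for the 3 control and triangles for the 3 DMMTA libraries. SAUR32 stands at 55.5 to 80.1 TPM in control and 11.1 to 12.7 TPM in DMMTA, while circles and triangles mix in the SAUR19, SAUR61 and SAUR26 groups.

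The largest fall was that of SAUR32 (AT2G46690), whose overexpression is known to abolish the apical hook of dark-grown seedlings. SAUR32 measured 80.1, 55.5 and 67.5 TPM in the control libraries and 11.4, 12.7 and 11.1 TPM in the DMMTA libraries. It was the most abundant member in control seedlings, and its lowest control library stood far above its highest DMMTA library. SAUR32 fell 5.77-fold in mean TPM (log2 fold change -2.47, SE 0.14, limma adjusted p = 1.31e-05).

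SAUR16 (AT4G38860) and SAUR50 (AT4G34760) are induced by light in cotyledons, where they promote opening and cell expansion. SAUR16 measured 21.1, 30.2 and 26.9 TPM in control and 8.57, 13.6 and 7.04 TPM in DMMTA. SAUR50 measured 16.8, 19.1 and 19.4 TPM in control and 6.67, 8.53 and 5.96 TPM in DMMTA. In both genes all DMMTA libraries were lower than all control libraries, with DMMTA 2 the highest of its group. SAUR16 fell 2.67-fold (log2 fold change -1.41, SE 0.23, adjusted p = 0.00248). SAUR50 fell 2.62-fold (-1.34, SE 0.15, adjusted p = 2.97e-04). SAUR14 (AT4G38840), a tandem neighbour of SAUR16 that is also light-induced, measured 21.9, 28.6 and 28.6 TPM in control and 14.2, 20.3 and 16.3 TPM in DMMTA. SAUR14 fell by 0.63 on the log2 scale (adjusted p = 0.0201), and its call was lost without control 2 (adjusted p = 0.0553), control 3 (0.0627), DMMTA 1 (0.0698) or DMMTA 3 (0.0714).

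Several close relatives of SAUR50 were among the genes that fell. By coding-sequence identity its nearest members were SAUR8 (82.3%), SAUR16 (76.2%), SAUR12 (75.7%), SAUR51 (72.8%), SAUR9 (70.4%) and SAUR10 (66.0%). SAUR51 (AT1G75580) measured 6.85, 12.9 and 7.55 TPM in control and 2.32, 2.56 and 1.44 TPM in DMMTA. SAUR8 (AT2G16580) measured 1.83, 3.14 and 2.85 TPM in control and 1.38, 1.19 and 0.372 TPM in DMMTA, where the lowest library holds an estimated 9 reads. SAUR51 fell 4.33-fold (log2 fold change -1.86, SE 0.26, adjusted p = 0.00109), the second largest fall among the members. SAUR8 fell by 1.12 on the log2 scale (SE 0.31, adjusted p = 0.0275), a call lost without control 2 (adjusted p = 0.0748), control 3 (0.0881) or DMMTA 3 (0.0593). SAUR12, SAUR9 and SAUR10 were not called, at log2 fold changes of -0.39, -0.55 and 0.02, and SAUR9 was called lower without DMMTA 2 (adjusted p = 0.0295). Members much less like SAUR50 also fell, among them SAUR32 (40.7% identity), SAUR76 (45.1%) and SAUR6 (42.6%). Others as distant, such as SAUR78 (44.3%) and SAUR41 (39.3%), were not called.

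SAUR76 (AT5G20820) and SAUR78 (AT1G72430) encode proteins known to bind ethylene receptors, and the first of them fell. SAUR76 measured 7.45, 6.86 and 7.80 TPM in control and 2.17, 2.45 and 1.46 TPM in DMMTA. SAUR78 measured 38.6, 43.8 and 43.0 TPM in control and 37.7, 36.9 and 40.8 TPM in DMMTA. The groups were far apart for SAUR76 and overlapped for SAUR78, which was second to SAUR32 in control and the most abundant member in DMMTA. SAUR76 fell 3.63-fold (log2 fold change -1.66, SE 0.17, adjusted p = 2.46e-04), while SAUR78 was not called (-0.12, SE 0.10, adjusted p = 0.395). The difference between the 2 genes' changes was not tested.

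SAUR36 (AT2G45210), also named SAG201, promotes leaf senescence. SAUR36 measured 10.4, 11.9 and 9.70 TPM in control and 6.11, 6.60 and 7.76 TPM in DMMTA. The groups did not overlap, and SAUR36 fell by 0.61 on the log2 scale (SE 0.14, adjusted p = 0.0109). SAUR52 (AT1G75590), which lies beside SAUR51 on chromosome 1, measured 3.36, 3.69 and 4.94 TPM in control and 1.54, 1.89 and 1.56 TPM in DMMTA. SAUR53 (AT1G19840) measured 2.61, 3.52 and 3.84 TPM in control and 2.18, 1.52 and 1.68 TPM in DMMTA. All DMMTA libraries were lower in both. SAUR52 fell by 1.04 (SE 0.17, adjusted p = 0.00257) and SAUR53 by 0.73 (SE 0.18, adjusted p = 0.0188) on the log2 scale. The SAUR53 call was lost without control 2 (adjusted p = 0.0531), control 3 (0.0592), DMMTA 2 (0.0719) or DMMTA 3 (0.0679).

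The other 8 tested dispersed members were not called, and their log2 fold changes lay between -0.55 (SAUR9) and 0.46 (SAUR30). The SAUR41 subfamily, whose proteins promote cell expansion, gave 3 of them. SAUR71 (AT1G56150), among the 3 highest members over the 6 libraries, measured 18.6, 21.7 and 20.2 TPM in control and 22.1, 21.6 and 28.3 TPM under exposure (adjusted p = 0.207). SAUR72 averaged 14.1 TPM in control, against 14.0 TPM in DMMTA (adjusted p = 0.982). SAUR41 (AT1G16510) measured 20.2, 21.4 and 21.3 TPM in control and 14.4, 15.7 and 19.8 TPM in DMMTA. Its groups did not overlap, yet the fall missed the threshold (log2 fold change -0.34, adjusted p = 0.0915). It was called without DMMTA 3 (adjusted p = 0.0409), the highest of the DMMTA libraries. SAUR30 (AT5G53590) measured 11.3, 11.9 and 7.21 TPM in control and 13.2, 16.0 and 12.5 TPM in DMMTA, and was not called (0.46, adjusted p = 0.115). SAUR41 and SAUR30 are named here after their values were seen.

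**Figure D3:**
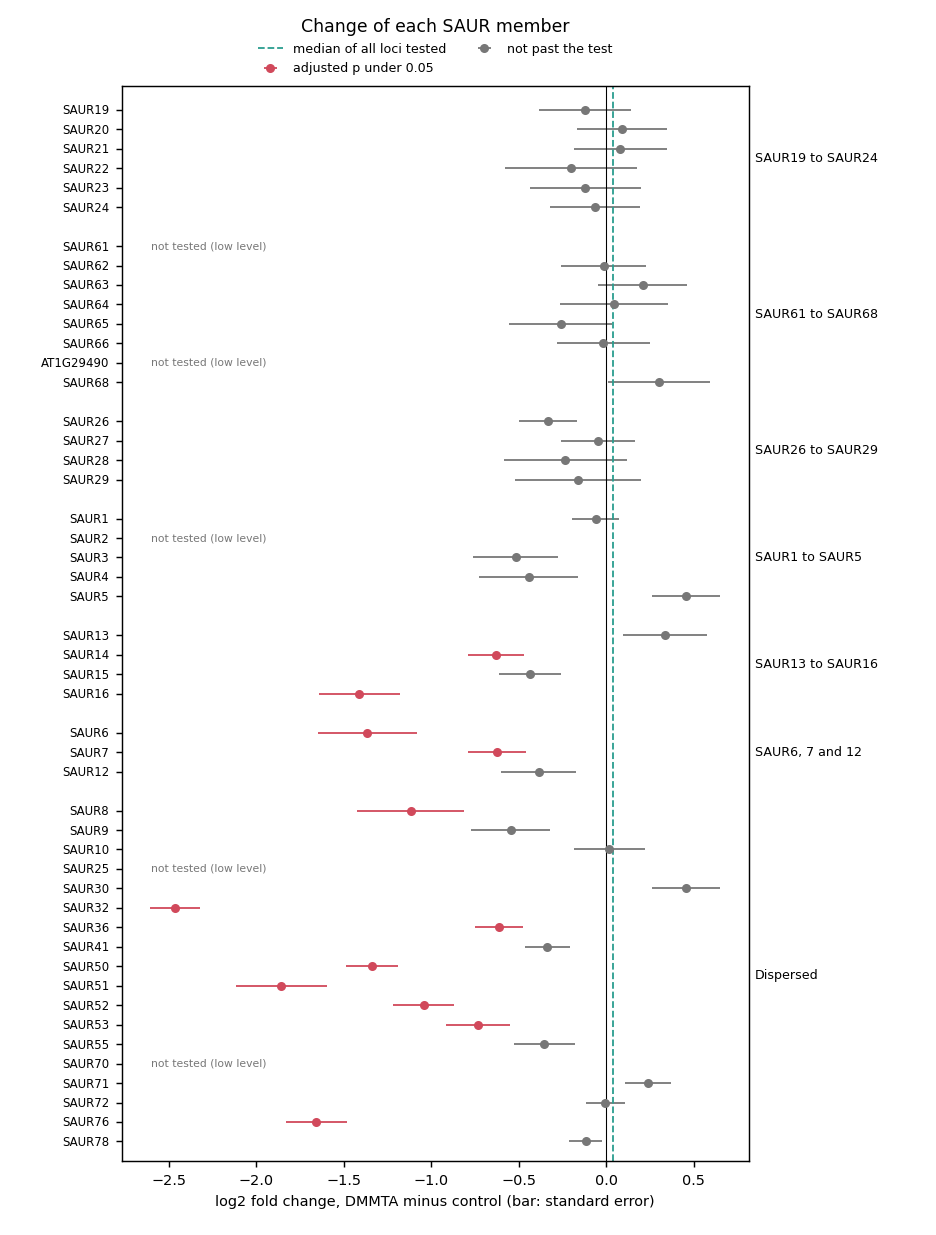
Log2 fold change of each tested member, DMMTA minus control, with its standard error as a bar, by tandem group, and the median of all loci tested (0.04) as a dashed line. The 12 members called lower are in red, from SAUR36 (-0.61) to SAUR32 (-2.47), and 5 members with low levels are marked as not tested.

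Of the 27 tested members in tandem groups 4 were called lower, all in the SAUR13 and SAUR6 groups, and of the 16 tested dispersed members 8 were. By locus tag SAUR50, SAUR51, SAUR52 and SAUR76, all dispersed and called lower, each lie beside another SAUR gene. These counts therefore do not compare tandem with isolated copies. Each tandem group was also measured as the sum of its loci, which depends less than a single member on how reads were divided between copies. Some dependence remains, since levels are scaled by coding length and reads matching several copies may have been left out or counted repeatedly. The sums were tested in the same fit with each group's loci replaced by their sum (18793 loci tested, 10.5% called lower). Of the 6 sums 2 were called lower and none higher.

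The SAUR13 to SAUR16 sum was 56.2, 68.8 and 70.5 TPM in control and 31.9, 47.9 and 34.3 TPM in DMMTA. It fell 1.71-fold (log2 fold change -0.79, SE 0.16, adjusted p = 0.00789; exact permutation p = 0.1, the smallest possible). The call was lost when both replicate 3 libraries were left out (-0.66, adjusted p = 0.103). Within the group SAUR14 and SAUR16 fell, as given above. SAUR15, the auxin-induced gene first described as SAUR-AC1, averaged 9.06 ± 1.55 TPM in control against 6.59 ± 1.36 TPM under DMMTA, which was not called (adjusted p = 0.103). SAUR13 averaged 3.71 ± 1.10 and 4.77 ± 1.15 TPM and was not called (adjusted p = 0.334). Its whole coding sequence of 270 bases lies opposite another annotated gene, and whether reads were counted by strand is not given in the sources used here. SAUR61 and SAUR63 are the other members that lie opposite another gene.

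The sum of SAUR6, SAUR7 and SAUR12 was 21.8, 19.5 and 36.4 TPM in control and 8.65, 12.8 and 10.3 TPM in DMMTA. It fell 2.45-fold (log2 fold change -1.22, SE 0.23, adjusted p = 0.00550). SAUR6 (AT2G21210) made up most of it, at 17.4, 14.8 and 32.6 TPM in control and 5.83, 9.28 and 8.02 TPM in DMMTA. Control 3 was the highest library, and the groups did not overlap. SAUR6 fell 2.80-fold (log2 fold change -1.37, SE 0.28, adjusted p = 0.00793). Without control 3 the fall was smaller and SAUR6 was still called lower (log2 fold change -1.032, adjusted p = 0.0107). SAUR7 (AT2G21200) measured 1.45, 1.14 and 1.59 TPM in control and 0.696, 0.811 and 0.665 TPM in DMMTA. SAUR7 fell by 0.62 (SE 0.17, adjusted p = 0.0248), a call lost without DMMTA 1 (adjusted p = 0.0616), DMMTA 2 (0.0518) or DMMTA 3 (0.0847). It reached 1 TPM in no DMMTA library, so it was tested because of its control libraries, and without any 1 of those it was not tested.

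The SAUR19 to SAUR24 group, whose proteins are the best-studied inhibitors of the clade D phosphatases, was not called. The sum was 38.1, 20.6 and 37.3 TPM in control and 21.9, 43.5 and 27.9 TPM in DMMTA (log2 fold change -0.05, SE 0.29, adjusted p = 0.917). Leaving out 1 library moved the log2 fold change between -0.33 (without control 2) and 0.17 (without DMMTA 1), and the group was not called in any of these fits. None of its 6 members was called, and their log2 fold changes were -0.20 to 0.09. SAUR24 (AT5G18080), the highest of them, measured 8.04, 4.43 and 7.53 TPM in control and 4.51, 8.09 and 6.38 TPM in DMMTA.

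The SAUR61 to SAUR68 group includes SAUR63, which promotes the elongation of hypocotyls and floral organs. Its sum was 39.7, 19.4 and 34.9 TPM in control and 24.2, 41.3 and 30.7 TPM in DMMTA (log2 fold change 0.06, SE 0.28, adjusted p = 0.881). SAUR62 (AT1G29430), the highest of them, measured 9.30, 5.13 and 8.88 TPM in control and 5.84, 9.33 and 7.55 TPM in DMMTA. None of the 6 tested members was called, and 2 of 8 (SAUR61 and AT1G29490) were below the level tested. The SAUR26 to SAUR29 group, linked to growth in warmth, had sums of 18.6, 11.1 and 16.1 TPM in control and 11.7, 18.3 and 9.60 TPM in DMMTA (-0.22, SE 0.25, adjusted p = 0.553). SAUR26 (AT3G03850), the highest of them, measured 6.16, 4.61 and 6.59 TPM in control and 4.59, 4.93 and 3.85 TPM in DMMTA, and none of the 4 was called.

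The SAUR1 to SAUR5 sum was 27.6, 19.3 and 27.1 TPM in control and 22.8, 23.3 and 24.9 TPM in DMMTA (log2 fold change -0.04, SE 0.15, adjusted p = 0.858). SAUR1 (AT4G34770) made up most of it, with 15.2, 12.2 and 15.0 TPM in control and 11.7, 14.7 and 14.1 TPM in DMMTA. None of the 4 tested members was called. SAUR3 was called lower only when control 2 was left out (adjusted p = 0.0357), and SAUR5 higher when control 1 was left out (adjusted p = 0.0296).

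**Figure D4:**
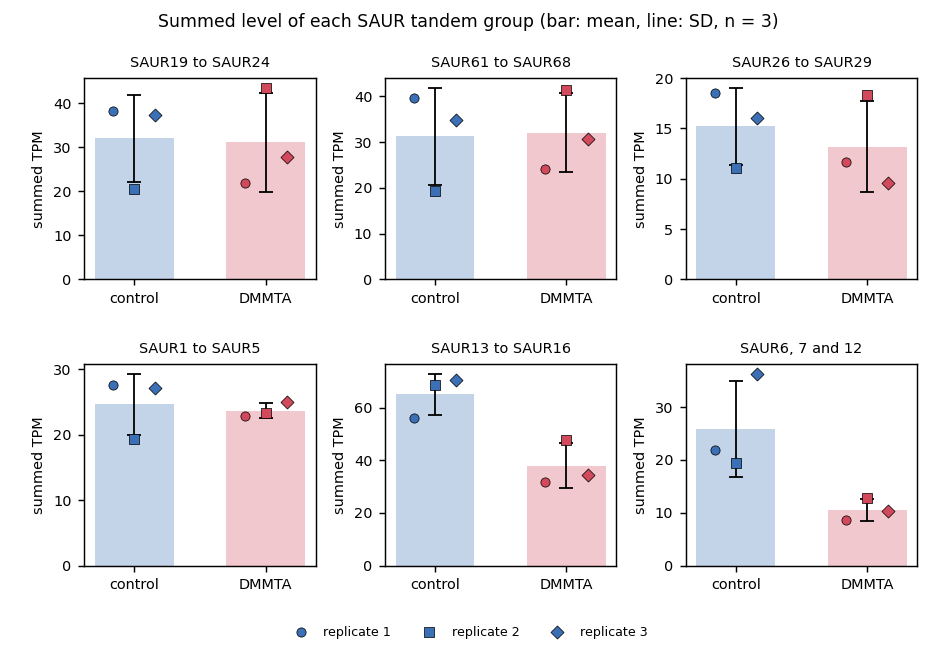
Summed TPM of each tandem group in control (blue) and DMMTA (red); bars are means, lines the SD of 3 libraries, and symbols single libraries by replicate number. The SAUR13 and SAUR6 groups are lower in every DMMTA library, and in the SAUR19, SAUR61 and SAUR26 groups replicate 2 is the lowest control and the highest DMMTA library.

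The spread in 3 tandem groups came with a shared order of libraries, which was noticed after the values were seen. In all 16 tested members of the SAUR19, SAUR61 and SAUR26 groups, control 2 was the lowest control library and DMMTA 2 the highest DMMTA library. The same held for 8 of the 27 other tested members and for 7.35% of all loci tested. Among the early auxin genes listed below 2 of 12 had this order. Control 2 and DMMTA 2 were also the most deeply sequenced library of their group, with an estimated 1.35e+08 and 1.1e+08 reads. The part of depth in this order was not tested, and libraries within a group are known only by number.

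**Figure D5:**
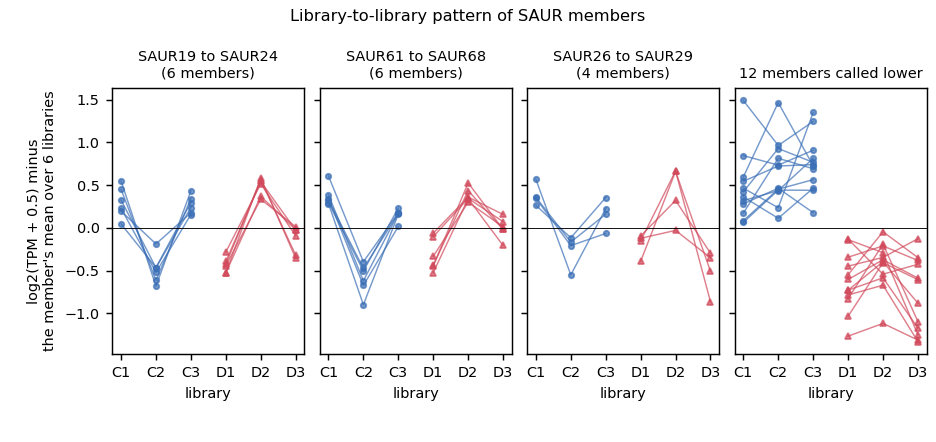
Log2(TPM + 0.5) of each tested member in the 6 libraries (C1 to C3 control, D1 to D3 DMMTA), minus that member's mean over the 6, with lines joining the libraries of a group for 1 member. In the first 3 panels C2 is the lowest control and D2 the highest DMMTA library for all 16 members, and in the last panel the 12 members called lower stand lower in DMMTA.

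The remaining 5 members were too low to test. SAUR2, SAUR61, AT1G29490 (a locus between SAUR65 and SAUR66), SAUR25 and SAUR70 had group means of at most 0.712 TPM. SAUR2 and SAUR25 were at 0 in 1 DMMTA library each and held at most 6 and 10 estimated reads in any library.

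Genes that act before and after SAUR proteins were called in both directions, and each count below stands beside 17.4% of all loci called higher and 10.5% called lower. Of 8 auxin receptor and receptor-like kinase genes (TIR1, the AFB genes, TMK1 and TMK4), all were tested and none was called, with a median log2 fold change of -0.06. Of 15 tested genes for growth transcription factors (auxin response factors, PIFs, brassinosteroid and light factors) 1 was called higher and 1 lower. HY5, which promotes light responses, averaged 34.1 ± 10.3 TPM in control and 60.7 ± 5.94 TPM in DMMTA (log2 fold change 0.86, adjusted p = 0.0165). Its call was lost without DMMTA 1 (adjusted p = 0.0611) or DMMTA 3 (0.0569). PRE6, also named KIDARI, averaged 16.1 ± 3.02 TPM in control and 9.49 ± 2.71 TPM under DMMTA (-0.74, adjusted p = 0.0300). Its call was lost without control 2, control 3, DMMTA 1 or DMMTA 3 (adjusted p = 0.0774 to 0.105), and with no filter (0.0529).

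Other early auxin genes were mostly not called. Of 12 tested IAA, GH3 and LBD genes, IAA5 was called higher and LBD29, which acts in lateral root formation, lower. IAA5 averaged 1.59 ± 0.309 TPM in control and 2.60 ± 0.297 TPM in DMMTA (log2 fold change 0.58, adjusted p = 0.0334), and lost its call without any 1 of control 2, control 3, DMMTA 1, DMMTA 2 and DMMTA 3 (adjusted p = 0.0533 to 0.108). LBD29 averaged 1.27 ± 0.389 and 0.553 ± 0.296 TPM (-0.76, adjusted p = 0.0496), and lost its call without DMMTA 1 (0.142) or DMMTA 3 (0.148), with a pseudocount of 0.1 (0.0512) or 2 (0.0555) and with no filter (0.0562). Like SAUR7 it reached 1 TPM in no DMMTA library, so it was tested because of its control libraries. The median log2 fold change of the 12 was -0.18. Of the 3 genes of this list below the level tested, GH3.1 alone had groups that did not overlap. GH3.1 measured 0.870, 1.48 and 0.903 TPM in control and 0.136, 0.294 and 0.186 TPM in DMMTA, 5.28-fold lower in mean TPM. With no filter 1 gene of the list was called lower. It was not LBD29, and which gene it was is not reported here.

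The clade D phosphatase genes, whose products the SAUR19-type proteins inhibit, gave 3 members called higher (17.4% of all loci), 1 lower (10.5% of all loci) and 5 not called out of 9. APD5 (AT4G33920) measured 34.8, 31.7 and 28.2 TPM in control and 91.7, 77.2 and 85.2 TPM in DMMTA. It rose 2.68-fold (log2 fold change 1.41, adjusted p = 5.7e-05). APD7 (AT5G02760) measured 53.5, 50.9 and 40.6 TPM in control and 25.8, 27.1 and 26.6 TPM in DMMTA, a fall of 0.85 on the log2 scale (adjusted p = 0.00112). APD8 (AT5G06750) rose by 0.42 on the log2 scale (adjusted p = 0.0214), and its call was lost without DMMTA 2 (0.0876) or DMMTA 3 (0.0714). AT3G12620, the other gene called higher, lost its call without either of the same libraries. The 5 genes not called had log2 fold changes of -0.14 (AT4G38520) to 0.29 (AT5G66080), with AT3G17090 and AT3G51370 both at 0.15. Which of the 9 products SAUR19-type proteins act on in these seedlings was not measured.

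Of 8 tested genes for plasma membrane proton pumps 2 were called lower (10.5% of all loci) and none higher (17.4% of all loci), and the median log2 fold change was -0.28. AHA2, the main pump of roots, measured 416, 393 and 233 TPM in control and 189.5, 214 and 183 TPM in DMMTA (log2 fold change -0.79, adjusted p = 0.0218). Control 3 stood near the DMMTA libraries, and the groups did not overlap. The call was lost without control 1, control 2, DMMTA 1 or DMMTA 3 (adjusted p = 0.0586 to 0.0782). AHA7 averaged 11.7 ± 3.20 and 6.98 ± 1.40 TPM (-0.68, adjusted p = 0.0477), and was lost without the same 4 libraries (adjusted p = 0.111 to 0.146). The AHA7 call was also lost with no filter (0.0795), with the FPKM column (0.0528) and with the highest coding sequence of each locus (0.0681). AHA1, the main pump of shoots, averaged 294 and 226.7 TPM and was not called (adjusted p = 0.142). Some settings gave more calls: 4 pump genes were called lower without control 3, 4 without both replicate 3 libraries, and 3 with median-of-ratios scaling.

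Markers of both organs were present, and 4 root markers fell beside the SAUR genes. Of 8 root markers 4 were called lower (CASP1, PHO1, COBL9 and RSL4; 10.5% of all loci were), and the 8 markers' summed level was 160.5 to 177 TPM in the control and 70.2 to 86.1 TPM in the DMMTA libraries. CASP1, which builds the Casparian strip of the endodermis, averaged 47.4 ± 1.04 TPM in control and 12.3 ± 7.34 TPM in DMMTA. PHO1, a phosphate exporter of the root stele, averaged 65.5 ± 7.37 and 21.3 ± 1.46 TPM. PHO1 and CASP1 had the highest control levels of the 8 root markers, so the sum follows them most. The RSL4 and CASP1 calls were lost without both replicate 3 libraries (adjusted p = 0.0596 and 0.0598). The other 4 root markers, PIN2, SCR, SHR and WER, were not called, at log2 fold changes of -0.27 to -0.17. Of 8 shoot markers LHCB2.1, a light-harvesting protein gene, was called higher and RCA, Rubisco activase, lower. The LHCB2.1 call was lost without any 1 DMMTA library (adjusted p = 0.0502 to 0.0838) and the RCA call without control 1, control 3, DMMTA 2 or DMMTA 3 (adjusted p = 0.0694 to 0.127) or with no filter (0.0577). The summed level of the 8 was 25960 to 29760 TPM in control and 23070 to 27190 TPM in DMMTA. In whole seedlings fewer cells of a type and less RNA per cell cannot be told apart, and the part of root or shoot RNA in the SAUR changes was not tested.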

How the data were processed

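The 3 control and 3 DMMTA libraries were poly(A)-selected and strand-specific, per the labels' protocols. The authors deposited RPKM and FPKM values per coding sequence, per the file headers, together with TPM. DESeq2 stands in the submitters' processing notes without a version or role; no aligner, counter, build or filter is given in the sources used here. Of 48350 rows per file, 1883 (3.90%) have cells displaced by a separator within a description and were left out; none is a member. Depth was estimated from 15 to 20 of these rows per library, which keep a read number and a TPM, with coding lengths of the annotation.

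RPKM was summed per locus, rescaled to TPM and tested with limma 3.58.1 in R 4.3.3 (intensity trend, no covariates), after a run on simulated data. Rescaled values differed from the deposited TPM by at most 1.06% above 5 TPM. Library totals were tested by exact permutation. Members, gene lists and tests were chosen with earlier results of these data known. Per-library values are given for called members, the highest member of each tandem group and the 3 highest members, and pathway genes are the 2 largest called changes per list and direction. Protein identity was replaced by coding-sequence identity (Biopython 1.88).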

Additional observations from a re-analysis of the deposited data

How the results depend on the processing

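Of the 12 members called lower, SAUR32, SAUR51, SAUR76, SAUR16, SAUR6, SAUR50, SAUR52 and SAUR36 kept their call under every alternative in which they were tested: a pseudocount of 0.1 or 2, no filter, at least 5 TPM in 3 libraries, median-of-ratios scaling, the FPKM column, the highest coding sequence of a locus, the replicate number as a block, each library left out, and both replicate 3 libraries left out. No called member changed sign. The count called lower was 8 to 12 (8 to 11 with 1 library left out; 8 of 26 tested members at 5 TPM), and the count called higher 0, except 1 (SAUR5) without control 1 and 2 (SAUR5 and SAUR30) with the replicate block. The SAUR13 to SAUR16 sum was no longer called without both replicate 3 libraries (-0.66), and the sum of SAUR6, SAUR7 and SAUR12 kept its call throughout.

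The pathway and marker lists together held 6 loci called higher and 10 lower. With 1 library left out these were 1 to 6 and 5 to 11, and without both replicate 3 libraries 2 were higher. The lower count was 6 without control 1 and 5 without DMMTA 3; the higher count was 2 without DMMTA 2 and 1 without DMMTA 3. The other SAUR-like loci went from 8 lower to 3 at 5 TPM, to 3 without both replicate 3 libraries and to 3 to 8 with 1 library left out; without a control, the 5 loci at or above 1 TPM in the 3 controls alone are not tested. With the replicate block 1 was higher. Over all loci 3272 higher and 1978 lower became 2181 and 1457 without DMMTA 2, 2074 and 1131 without DMMTA 3, and 1843 and 847 without both replicate 3 libraries.

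The labels give replicate numbers and do not say whether same-numbered libraries were paired. Same-numbered deviations correlated at 0.24, 0.33 and 0.083, and those of other pairs at -0.29 to 0.0086. Each library correlated best with its own number. These values do not tell whether same-numbered libraries shared a batch, and the main fit has no block. With the replicate block 3539 loci were higher and 2242 lower, and all 12 members stayed called. Summed levels have no pseudocount, filter or block. With 3 libraries a group, a permutation p cannot go below 0.1, and a member under about 1 TPM rests on few reads.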

Other observations

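The annotation names 30 further loci as SAUR-like, and the transcripts of some of them were lower under DMMTA. Of 16 tested, 8 were called lower (against 10.5% of all loci) and none higher, with a median log2 fold change of -0.57. Of these 8, 5 reached 1 TPM in no DMMTA library and so were tested only because their control levels were higher, which leaves 3 called of 11. SAUR37 measured 13.8, 9.89 and 15.2 TPM in control and 5.54, 3.85 and 4.48 TPM in DMMTA, a fall of 1.39 on the log2 scale (limma adjusted p = 9.36e-04). SAUR49, which neighbours SAUR50 on chromosome 4, averaged 13.3 ± 0.890 TPM in control and 6.78 ± 0.376 TPM in DMMTA, a fall of 0.92 (adjusted p = 5.43e-04). SAUR31 averaged 13.8 ± 0.724 and 8.40 ± 1.24 TPM, a fall of 0.70 (adjusted p = 0.00493). SAUR40, a gene of the SAUR41 subfamily, measured 1.24 to 2.36 TPM in control and was at 0 in DMMTA 1 and DMMTA 2 and at 0.0620 TPM in DMMTA 3. The upstream windows of 4 of these 30 loci held CACATG (13.3%). With the members, 20 of 59 tested SAUR-like loci were called lower and none higher, or 14 of 53 without the 6 loci that reached 1 TPM in no DMMTA library.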
